A study of Homo sapiens with 27 samples.

Results

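The genes described here encode the protein subunits of oxidative phosphorylation (OXPHOS), the 5 enzyme complexes of the inner mitochondrial membrane. They were taken by symbol from 2 gene tables measured in SHP77, an established line of small cell lung cancer. The set holds the 13 mitochondrial genes for proteins and the nuclear protein-coding genes named NDUFA, NDUFB, NDUFC, NDUFS or NDUFV, SDHA to SDHD, UQCR, CYC1, COX4I to COX8A, ATP5F1, ATP5M or ATP5P. Assembly factors (NDUFAF) and pseudogenes were left out. In all, 101 members were found, 13 mitochondrial and 88 nuclear, out of 41686 genes with a read in shRNA libraries and 34200 genes in siRNA libraries. The nuclear members fall into complex I (37 genes), complex II (4), complex III (10), complex IV (18) and complex V (19). At a mean of at least 10 normalized counts, 94 of 100 listed members could be tested in the shRNA table (13 mitochondrial, 81 nuclear) and 96 of 99 in the siRNA table (13 and 83). Normalized counts are the authors' read counts after scaling for library size.

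RNA was sequenced from 17 libraries of SHP77. In 6 libraries the cells stably carried a lentiviral shRNA: circRMST shRNA 1 (n = 2) or circRMST shRNA 2 (n = 2) against the circular RNA circRMST, or shGFP (n = 2) as the negative control. Puromycin (3 µg/ml, 3 days or longer) selected the transduced cells, and a TruSeq stranded total RNA kit took 1 µg of their RNA. The cells of the other 11 libraries had been transfected for 72 hours with SOX2 siRNA 1 or 2 (n = 2 each), NKX2-1 siRNA 1 or 2 (n = 2 each) or si-control (n = 3), and 500 ng of RNA entered the TruSeq RNA kit V2. SOX2 and NKX2-1 are transcription factors with which circRMST interacts, per the series text. Each knockdown was taken as the average of its 2 reagents minus its control, with limma on log2 of the normalized count plus 1. "Rose" and "fell" mean an adjusted p (Benjamini-Hochberg over all genes tested) under 0.05. The series text calls the replicates biological without naming separate cultures, so p-values measure only how these libraries differ among themselves, in part perhaps technically.

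Complex I (NADH dehydrogenase) and complex II (succinate dehydrogenase) pass electrons to ubiquinone, complex III (the cytochrome bc1 complex) passes them to cytochrome c, and complex IV (cytochrome c oxidase) hands them to oxygen. Complex V (ATP synthase) uses the proton gradient that complexes I, III and IV build. The mitochondrial genes are transcribed together from both strands of a small circular genome and cut into single mRNAs, whereas the nuclear subunits are transcribed singly and imported as proteins, and complex II is encoded wholly in the nucleus. NRF1, ETS factors of the GABP type and YY1 are known activators of nuclear OXPHOS genes in human cells.

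The promoters of 4 nuclear members, picked without a fixed rule, are shown as examples that differ in these known motifs, and they do not stand for the set. RefSeq (GRCh38.p14) held a promoter, 250 bases before the gene's start to 50 bases after it, for 71 of the 88 nuclear members. Capitals mark exact matches, on either strand, to an NRF1 motif (GCATGCGC), an ETS motif (CCGGAAGT), a YY1 motif (AAGATGGCG), a SOX motif (CATTGT) and an NKX2-1 motif (CAAGTG).
UQCR10, chr22:29767119-29767418, plus strand: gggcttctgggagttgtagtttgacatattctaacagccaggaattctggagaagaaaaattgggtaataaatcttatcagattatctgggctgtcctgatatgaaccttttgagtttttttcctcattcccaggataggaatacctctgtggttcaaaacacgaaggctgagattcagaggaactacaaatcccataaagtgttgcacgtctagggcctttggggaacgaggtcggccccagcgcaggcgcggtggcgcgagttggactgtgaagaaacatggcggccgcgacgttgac
COX6A1, chr12:120437863-120438162, plus strand: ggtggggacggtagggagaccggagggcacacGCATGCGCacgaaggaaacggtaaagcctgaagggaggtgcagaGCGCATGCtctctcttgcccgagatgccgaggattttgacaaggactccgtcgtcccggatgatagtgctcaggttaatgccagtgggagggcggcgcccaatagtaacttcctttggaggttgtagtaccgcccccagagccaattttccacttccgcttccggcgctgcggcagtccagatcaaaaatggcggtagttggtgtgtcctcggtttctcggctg
SDHB, chr1:17053983-17054282, minus strand: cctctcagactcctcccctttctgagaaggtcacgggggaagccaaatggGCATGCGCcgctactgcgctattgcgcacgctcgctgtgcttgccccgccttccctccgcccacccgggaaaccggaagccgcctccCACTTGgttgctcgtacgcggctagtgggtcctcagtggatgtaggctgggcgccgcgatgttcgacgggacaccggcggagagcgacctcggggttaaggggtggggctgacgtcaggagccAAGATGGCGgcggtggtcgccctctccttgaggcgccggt
SDHD, chr11:112086623-112086922, plus strand: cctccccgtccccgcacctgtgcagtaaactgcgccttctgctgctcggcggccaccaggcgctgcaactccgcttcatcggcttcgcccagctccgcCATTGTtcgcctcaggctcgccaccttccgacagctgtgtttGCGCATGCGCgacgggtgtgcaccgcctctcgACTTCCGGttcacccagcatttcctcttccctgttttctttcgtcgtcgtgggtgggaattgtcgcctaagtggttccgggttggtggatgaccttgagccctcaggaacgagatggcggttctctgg
COX6A1 held the NRF1 letters at positions -218 and -174 from the gene's start (the start counted as 1, with no position 0). SDHD held the NRF1 letters on both strands in 1 overlapping stretch from -110, the ETS letters at -78 and the SOX letters at -152. SDHB held the NRF1 letters at -200, the NKX2-1 letters at -113 and the YY1 letters at 11. The window of UQCR10 held none of the letters searched. Over the 71 nuclear members, the NRF1 letters stood in 18.3% of promoters, against 3.05% of all 35116 promoters in the table. The ETS letters stood in 14.1% of member promoters against 4.14% of all, and the YY1 letters in 11.3% against 1.75%. For the SOX letters the shares were 5.63% against 10.8%, and for the NKX2-1 letters 9.86% against 11.5%. With circRMST knockdown the NRF1 letters stood in 5 of 23 member promoters whose genes rose and 1 of 8 whose genes fell. The counts were 7 of 30 and 1 of 4 with SOX2 knockdown, and 5 of 21 and 0 of 3 with NKX2-1 knockdown. Letters in a window describe the sequence only and show no binding.

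Libraries held 46850300 to 57352556 reads with shRNA and 15486858 to 50098747 reads with siRNA. SOX2 had 423 ± 36 normalized counts in SOX2 knockdown against 1142 ± 54 in si-control libraries, and NKX2-1 had 915 ± 124 in NKX2-1 knockdown against 2234 ± 110 in si-control (SD, n = 4 and n = 3). The tables hold no row for circRMST, so its level was not checked. All 8 neuroendocrine markers were detected in every group. Their summed counts were 31770 to 35998 in circRMST knockdown against 66850 to 71374 in shGFP, and 60608 to 67883 in all siRNA libraries. Summed fibroblast markers were 373 to 812 in circRMST knockdown against 167 to 226 in shGFP. They were 218 to 291 in SOX2 knockdown and 66.1 to 114 in NKX2-1 knockdown, against 84.9 to 116 in si-control. Summed endothelial markers were 147 to 179 in circRMST knockdown against 395 to 397 in shGFP. They were 75.1 to 136 with SOX2 knockdown, 147 to 158 with NKX2-1 siRNA 1 and 435 to 443 with NKX2-1 siRNA 2, against 341 to 354 in si-control. Summed blood markers were 0.978 to 2.76 in circRMST knockdown against 31.3 to 44.2 in shGFP, and 3.70 to 9.25 in all siRNA libraries. RNAs of the 7SL type took 0.379 to 0.467% of reads in circRMST knockdown against 0.180 and 0.186% in shGFP. The shGFP libraries stood apart in low-level reads. Of 1558 genes without a read in the siRNA table, 14.7 to 20.5% had a read in circRMST knockdown libraries against 82.4 and 85.5% in shGFP. The part of these differences in the results below was not tested, and fewer cells of a type and less RNA per cell cannot be told apart in bulk RNA.

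In these cells the mitochondrial mRNAs were among the most abundant RNAs. They held 6 or 7 of the 10 highest ranks of every library and 10 or 11 of the highest 50. Compared per kilobase of gene, MT-CO1 (complex IV, chrM:5904-7445) had 333817 ± 7666 normalized counts per kb in si-control, and MT-CO2 (complex IV, chrM:7586-8269) had 307289 ± 5894 (SD, n = 3). MT-ND4 (complex I, chrM:10760-12137) followed with 268492 ± 6348 and MT-ATP6 (complex V, chrM:8527-9207) with 224556 ± 6398. MT-CYB, the only mitochondrial subunit of complex III (chrM:14747-15887), had 115863 ± 2073. MT-ND3 had 109617 ± 4280, and the ranges of mean and SD of the 2 genes overlapped slightly. In shGFP the order began instead with MT-CO2 (453441 ± 23397) and MT-CO1 (318781 ± 9728, n = 2), and MT-ND6 (complex I, chrM:14149-14673), the only protein gene of the light strand, was lowest with 11204 ± 2413 per kb.

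MT-ATP8 and MT-ND6 took different places in the order of the 2 tables. MT-ATP8 (complex V, chrM:8366-8572) shares 46 bases with MT-ATP6. It had 82022 ± 2440 counts per kb in shGFP but 934 ± 166 in si-control, the lowest there. MT-ND6 took 0.270 and 0.330% of mitochondrial mRNA reads in shGFP and 1.54 to 1.56% in si-control. The tables were normalized separately and came from different kits, and MT-RNR2, the large mitochondrial ribosomal RNA, took 40.5 to 45.4% of reads in shRNA libraries and 0.413 to 0.780% in siRNA libraries. Only the kit of the shRNA libraries is named as stranded, and whether counting used strand was not given for either table. Reads from MT-ND6 and from RNA opposite to it thus cannot be told apart, least of all in the siRNA libraries. No level is therefore compared across the tables below.

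In both siRNA knockdowns mitochondrial mRNAs took a smaller share of all reads than in their control, and nuclear OXPHOS genes a larger share. With circRMST knockdown the 2 reagents did not share such a separation. Mitochondrial mRNAs took 7.68 and 8.19% of reads with SOX2 siRNA 1, 6.35 and 6.20% with SOX2 siRNA 2, 6.81 and 6.65% with NKX2-1 siRNA 1 and 7.92 and 7.14% with NKX2-1 siRNA 2, against 9.37, 9.06 and 9.32% in si-control. Every knockdown library lay below every control library. Nuclear members took 0.933 and 0.959%, 0.956 and 0.964%, 0.931 and 0.927%, and 0.998 and 1.01% in the same order, against 0.867, 0.879 and 0.877% in si-control, with every knockdown library above the controls. Under the deposited scaling the nuclear sums of 1 reagent did not separate from the controls. They were 204079, 209214, 206865 and 208778 normalized counts in SOX2 knockdown, 191426 and 189827 with NKX2-1 siRNA 1 and 214942 and 215139 with NKX2-1 siRNA 2, against 189806, 191427 and 191418 in si-control, so that NKX2-1 siRNA 1 lay within the range of the controls. The mitochondrial sums were 1341730 to 1787537 in SOX2 knockdown and 1362378 to 1705857 in NKX2-1 knockdown, against 1974174 to 2050102 in si-control. There were 8.23, 8.54, 6.65 and 6.43 mitochondrial mRNA reads per nuclear member read in SOX2 knockdown and 7.31, 7.18, 7.94 and 7.06 in NKX2-1 knockdown, against 10.8, 10.3 and 10.6 in si-control. In the shRNA libraries this ratio was 8.58 and 9.10 with circRMST shRNA 1 and 9.30 and 8.68 with circRMST shRNA 2, against 8.55 and 9.70 in shGFP, so that the groups overlapped. Depth did not separate the groups in the siRNA table: SOX2 knockdown libraries had 16135877 to 30742546 reads and NKX2-1 knockdown libraries 17242602 to 50098747 reads, against 15486858 to 17872350 reads in si-control, with overlap in both cases.

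**Figure D1:**
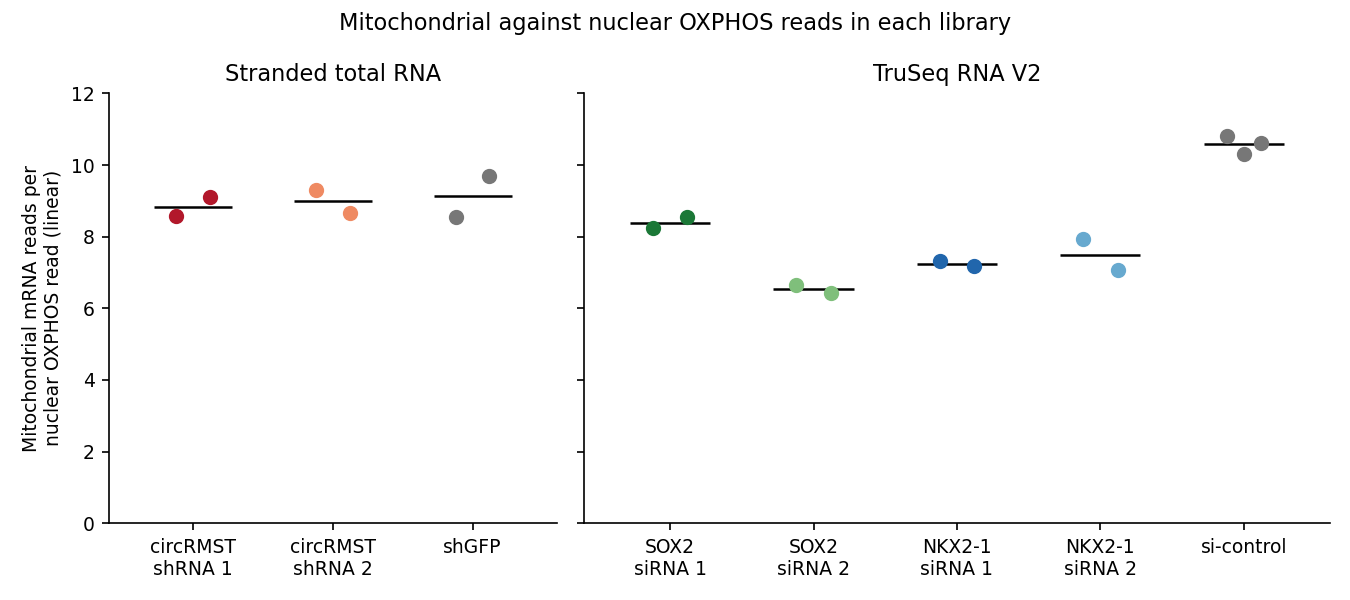
Mitochondrial mRNA reads per nuclear OXPHOS read (linear axis) in each library, by group, with points for libraries and bars for group means. SOX2 and NKX2-1 knockdown libraries lie between 6.43 and 8.54, below the si-control libraries at 10.3 to 10.8, whereas circRMST knockdown libraries (8.58 to 9.30) lie within the range of shGFP (8.55 and 9.70).

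With circRMST knockdown the mitochondrial mRNAs split, with 2 that rose, 7 that fell and 4 that did not pass among 13. Over all genes tested, 27.8% rose and 25.9% fell. MT-ND6 fell most, with 1097 and 2169 normalized counts with shRNA 1 and 3400 and 2407 with shRNA 2, against 4986 and 6778 in shGFP. All 4 knockdown libraries lay below both controls, and its log2 fold change was -1.47 (SE 0.16, adjusted p = 6.68e-08), 2.77-fold lower. It fell with each reagent, at -1.91 with shRNA 1 and -1.02 with shRNA 2. MT-ND6 took 0.0504 and 0.0977% of mitochondrial mRNA reads with shRNA 1 and 0.172 and 0.128% with shRNA 2, against the shGFP shares given above.

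MT-CO1, the catalytic core of complex IV, rose with both reagents. It had 644417 and 626811 normalized counts with shRNA 1 and 591941 and 574474 with shRNA 2, against 480953 and 502167 in shGFP (log2 fold change 0.31, SE 0.06, adjusted p = 6.01e-05), but was level under quantile normalization (-0.00), which by construction gives RNAs of equal rank the same value in every library. MT-ND1, a membrane subunit of complex I (chrM:3307-4262), rose on average (0.40, SE 0.06, adjusted p = 2.3e-06) through shRNA 1. It had 205554 and 220060 counts with shRNA 1 and 141368 and 131488 with shRNA 2, against 119782 and 138606 in shGFP. Only the shRNA 1 libraries lay wholly above the controls, and with shRNA 2 alone the log2 fold change was 0.08 (adjusted p = 0.323).

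The other calls were smaller falls. MT-ND3 (complex I) had 27288, 30674, 26900 and 25863 counts in circRMST knockdown against 33289 and 40572 in shGFP (-0.41, adjusted p = 4.55e-06). MT-ATP8 (-0.32, adjusted p = 5.34e-06) and MT-CO3 (-0.26, adjusted p = 0.000102) fell with both reagents too. MT-ND5 (-0.27), MT-CYB (-0.21) and MT-ATP6 (-0.19) also passed, but shGFP replicate 2 decided them: without it they were at -0.16, -0.13 and -0.09 and did not pass. Without that library 4 of the 13 rose and 4 fell. MT-CO2, MT-ND2, MT-ND4 and MT-ND4L did not pass, with log2 fold changes of 0.11, -0.05, 0.09 and 0.12. Over the 13 mRNAs the median was -0.19, against 0.00 over all genes tested. With each reagent alone as well as on average, 1 rose and 5 fell, against 19.6 and 17.4% of all genes tested. For 2 mRNAs every knockdown library lay above the controls and for 5 below, against 28.6 and 28.2% of all genes.

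**Figure D2:**
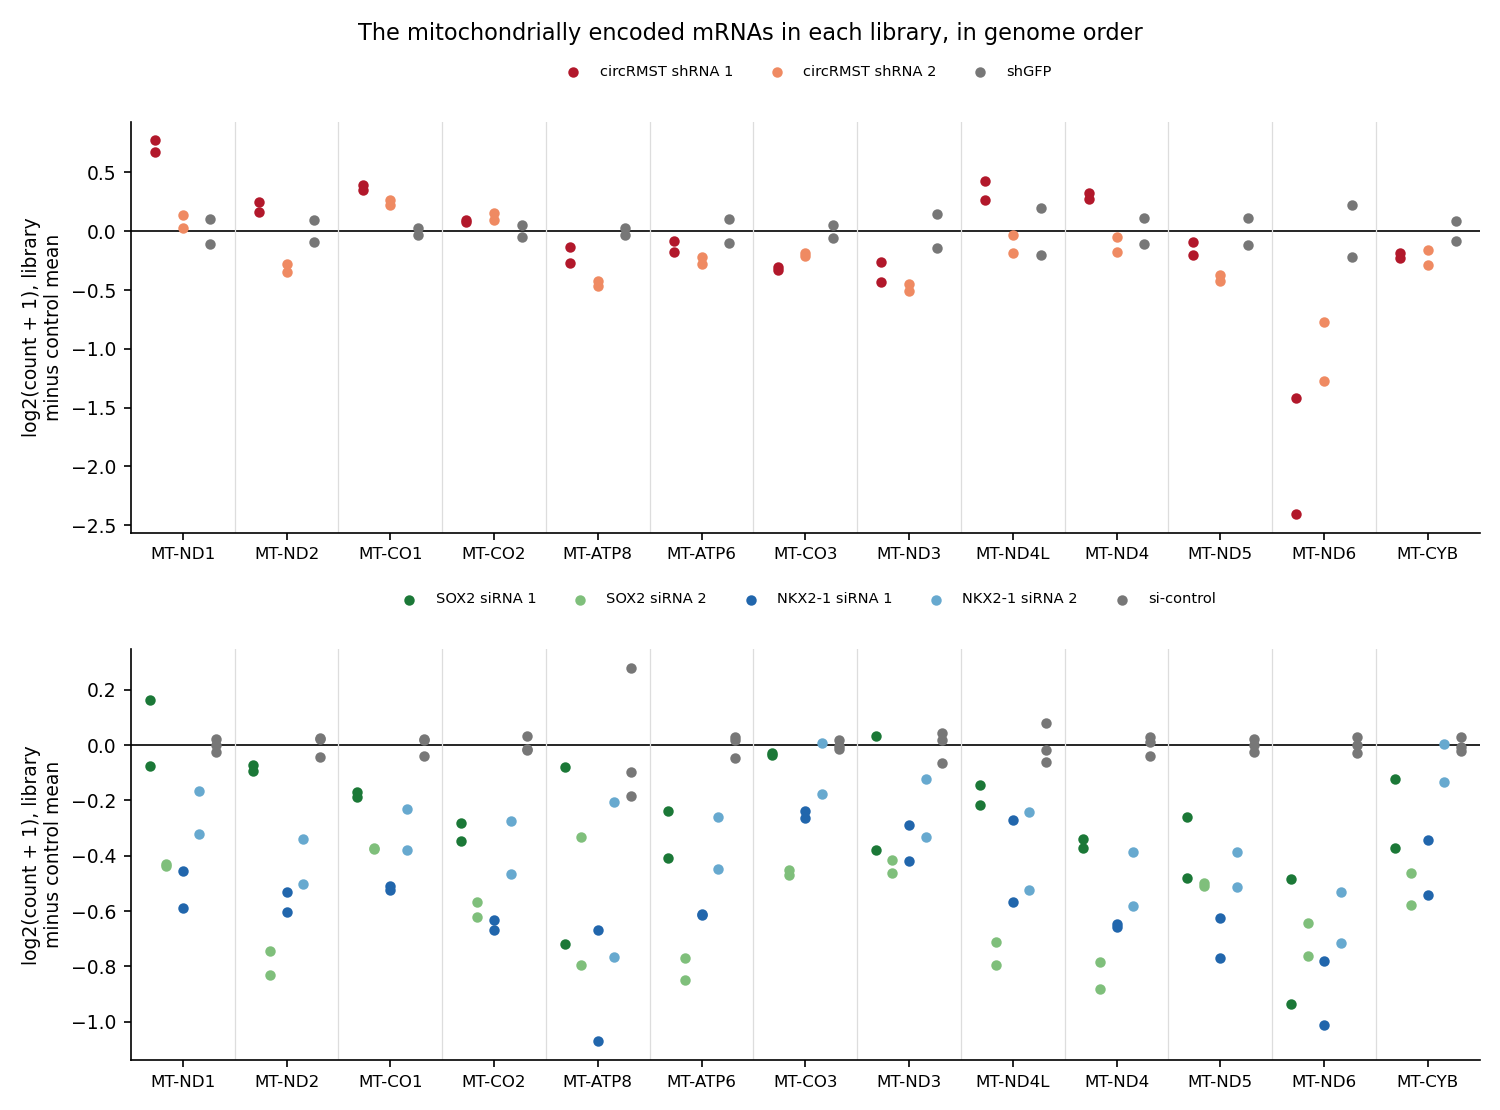
The 13 mitochondrial mRNAs in genome order in each library, as log2 of the normalized count plus 1 minus the mean of the table's control libraries (shGFP above, si-control below), with points for libraries. In the shRNA panel MT-ND6 lies lowest and MT-CO1 above 0 in all 4 circRMST libraries (level under quantile normalization). In the siRNA panel most SOX2 and NKX2-1 points lie below 0, a direction that turned for MT-ND1 and MT-CO3 (both knockdowns) and MT-CYB (NKX2-1) under quantile normalization.

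Of the 81 nuclear members tested, 28 rose, 12 fell and 41 did not pass with circRMST knockdown, or 34.6% rose against 27.8% of all genes. The rise depended on scaling: with libraries set to equal totals, 14 rose and 30 fell, and the median of all genes then moved to -0.14 (3636 rose and 6513 fell, against 5294 and 4936 with the deposited scaling). With both reagents, 12 of 81 rose and 6 fell, against 19.6% of all genes rising and 17.4% falling. Every knockdown library lay above the controls for 22 members (27.2%, against 28.6% of all genes). For 17 members every one lay below (21.0%, against 28.2% of all genes). The median was 0.07. Complex III had 5 rises and 0 falls among 10 members (with equal totals UQCRC1 was at 0.09 and did not pass). Complex I had 13 rises and 4 falls among 37, complex IV 3 and 4 among 13, and complex V 6 and 3 among 17.

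UQCR10 (chr22:29767369-29770413), a small subunit of complex III, rose most. It had 3786 and 2975 normalized counts with shRNA 1 and 3176 and 3159 with shRNA 2, against 1533 and 1464 in shGFP, a 2.18-fold rise (log2 fold change 1.12, SE 0.07, adjusted p = 7.49e-12). All knockdown libraries were well above both controls and the reagents did not differ past the threshold (0.08, adjusted p = 0.553). UQCRC1, a core subunit of the same complex, rose by less (0.23, adjusted p = 0.00477), and without shGFP replicate 2 its log2 fold change was 0.19 and did not pass.

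In complex I the named members moved apart. NDUFB9, an accessory subunit of the membrane arm, had 6655, 6302, 5257 and 5506 counts in circRMST knockdown against 4181 and 3873 in shGFP (0.55, SE 0.05, adjusted p = 5.87e-09). NDUFV1, which carries the NADH-binding site, rose to 7028, 7230, 8096 and 7987 counts, against 5506 and 5715 in shGFP (0.43, adjusted p = 6.47e-08). NDUFB5 (chr3:179604794-179627647), another membrane-arm accessory subunit, fell most among the nuclear members, to 1307 and 1333 counts with shRNA 1 and 1636 and 1710 with shRNA 2, against 2892 and 2848 in shGFP. That was 1.93-fold lower (-0.95, SE 0.06, adjusted p = 7.96e-12), with no overlap between the groups. NDUFA1 fell by less (-0.28, adjusted p = 0.0016), and without shGFP replicate 1, when its log2 fold change was -0.24, it did not pass. Without that library 7 nuclear members fell in place of 12.

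The 4 subunits of complex II did not move together. SDHA (chr5:218320-268746), the flavoprotein that oxidizes succinate, had 6242, 6285, 5817 and 5486 counts in circRMST knockdown against 4116 and 4341 in shGFP (0.49, SE 0.05, adjusted p = 2.21e-08). SDHC (chr1:161314381-161363206), a membrane anchor, had 1250, 1338, 1750 and 2008 against 2273 and 2280 (-0.55, SE 0.07, adjusted p = 3.91e-07). SDHA was above and SDHC below the controls in every knockdown library. SDHB, the iron-sulfur subunit (0.10, adjusted p = 0.155), and SDHD, the other anchor (-0.07, adjusted p = 0.451), did not pass. In complex V, ATP5F1B, the catalytic beta subunit, rose (0.34, adjusted p = 3.4e-06) and ATP5F1E, the epsilon subunit, fell (-0.33, adjusted p = 3.34e-05). In complex IV, COX7C fell (-0.35, adjusted p = 4.63e-05). COX6A1, a small subunit whose promoter holds the NRF1 letters at 2 places, had 1178 and 996 counts with shRNA 1 and 820 and 890 with shRNA 2, against 777 and 777 in shGFP (0.31, adjusted p = 0.00354). It missed the threshold for shRNA 2 by itself (0.14, adjusted p = 0.261) and with equal totals (0.16), and 0 members of complex IV rose with both reagents.

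**Figure D3:**
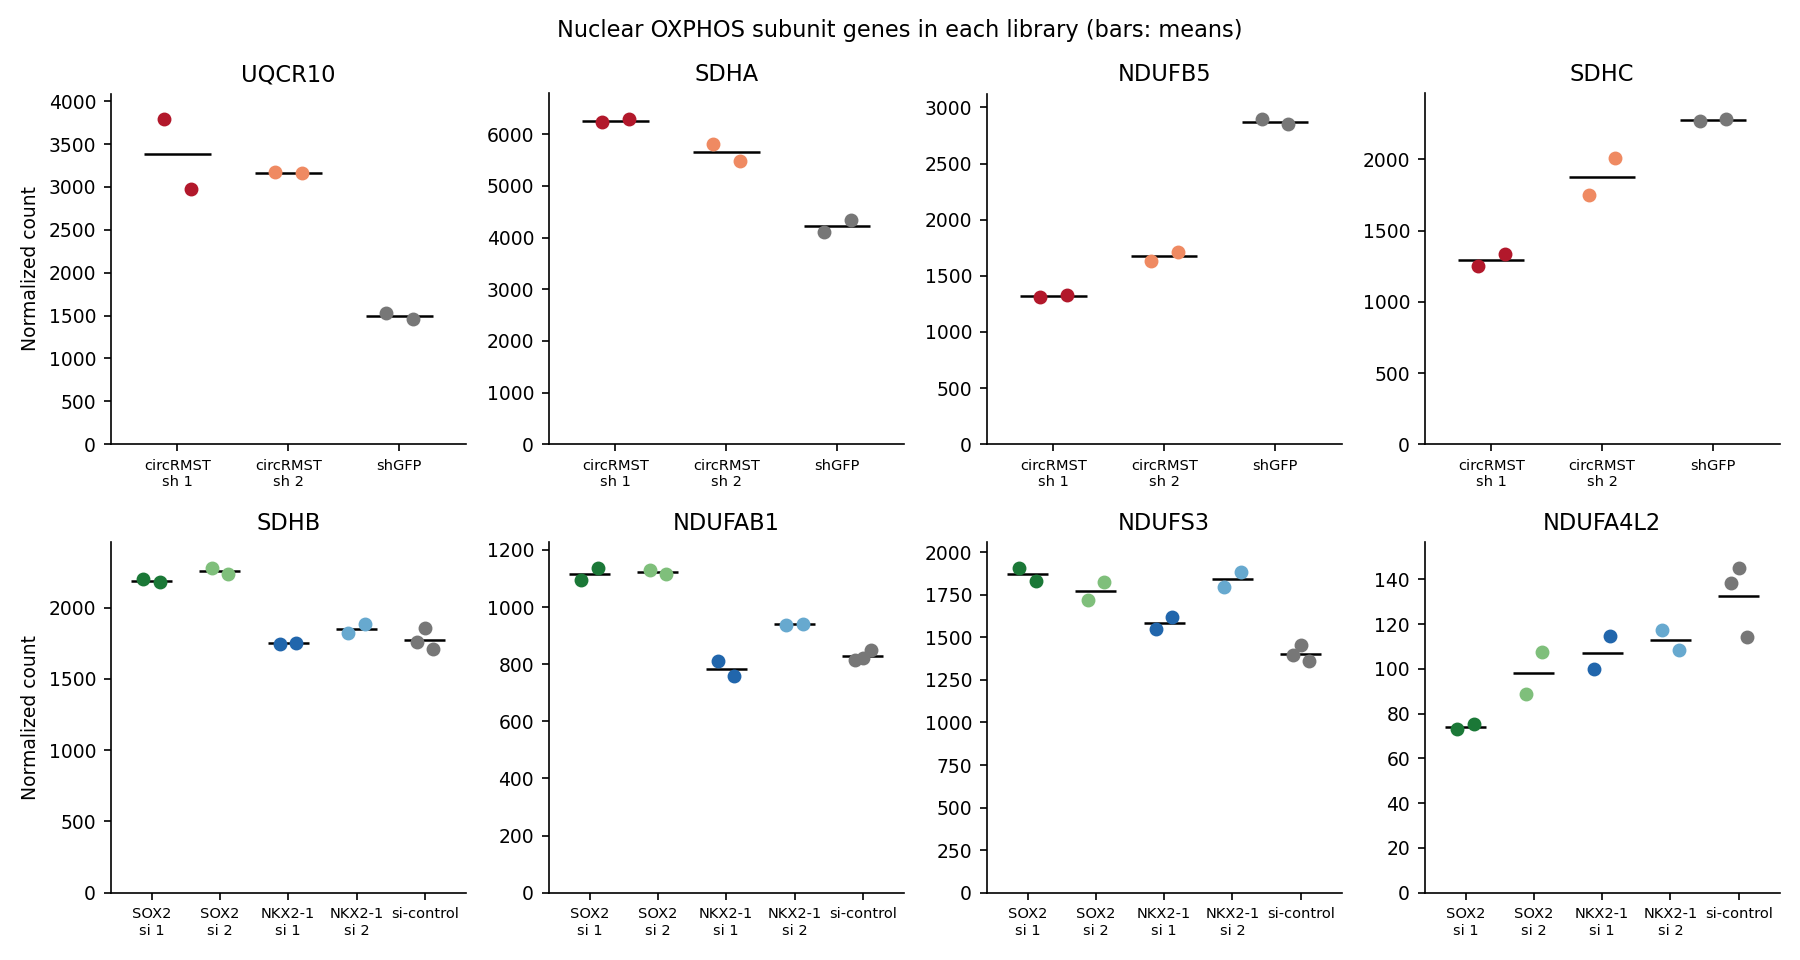
Normalized counts (linear axes from 0) of 4 nuclear members in shRNA libraries (upper row) and 4 in siRNA libraries (lower row), with points for libraries and bars for group means. UQCR10 and SDHA lie higher and NDUFB5 and SDHC lower in every circRMST library than in shGFP, and SDHB and NDUFAB1 lie higher in every SOX2 library than in si-control.

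The 2 circRMST reagents differed in the nuclear members. Of 81, 39 were higher and 4 lower with shRNA 1 than with shRNA 2, so 43 differed, against 19.1% of all genes tested in either direction. With shRNA 1 alone 37 rose and 9 fell, against 26.7 and 24.2% of all genes. With shRNA 2 alone 15 rose and 20 fell, against 24.5 and 22.9%. NDUFA4, a complex IV subunit, had 3771 and 3426 counts with shRNA 1 and 2185 and 2375 with shRNA 2, against 3207 and 2959 in shGFP. It was thus above the controls with one reagent and below them with the other, and the reagents differed by 0.66 (SE 0.07, adjusted p = 3.59e-07). MT-RNR2 took 42.0 and 41.7% of reads with shRNA 1 and 44.3 and 45.4% with shRNA 2, against 40.5 and 41.1% in shGFP, and its part in these differences was not tested.

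All 13 mitochondrial mRNAs fell with SOX2 knockdown (median -0.44) and with NKX2-1 knockdown (median -0.48), with 0 that rose in either. Over all genes tested, 28.7% fell and 27.6% rose with SOX2 knockdown, and 21.4% fell and 18.5% rose with NKX2-1 knockdown. Both knockdowns were set against the same si-control libraries, so neither supports the other independently. The direction held for all 13 under every scaling tried except quantile normalization, in which 6 fell and 1 rose with SOX2 knockdown and 6 fell and 3 rose with NKX2-1 knockdown. Under it MT-ND1 was at 0.25 and 0.10 and MT-CO3 at 0.03 and 0.13 in SOX2 and NKX2-1 knockdown, and MT-CYB at 0.20 in NKX2-1 knockdown. MT-CO1 was at 0 under it, since the method gives equal ranks equal values. Counts that also passed with each reagent alone were 9 falls with SOX2 knockdown, against 19.3% of all genes falling and 18.6% rising, and 10 falls with NKX2-1 knockdown, against 10.2% falling and 8.88% rising. MT-RNR2 took 0.585 to 0.683% of reads in SOX2 knockdown and 0.413 to 0.716% in NKX2-1 knockdown, against 0.763 to 0.780% in si-control. All knockdown libraries lay below all controls for 10 mRNAs with SOX2 knockdown (25.0% of all genes, and 24.5% above) and for 11 with NKX2-1 knockdown (18.0% of all genes, and 15.9% above).

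The MT-ND6 row, which may hold reads of RNA from the opposite strand, fell most in both knockdowns. It had 16410, 22443, 18506 and 20092 normalized counts in SOX2 knockdown and 18299, 15569, 21715 and 19119 in NKX2-1 knockdown, against 32031, 30804 and 31382 in si-control. No knockdown library reached the controls, and the log2 fold changes were -0.71 (SE 0.06, adjusted p = 2.93e-10) and -0.76 (SE 0.06, adjusted p = 1.88e-10). MT-ND6 took 0.977 to 1.5% of mitochondrial mRNA reads in SOX2 knockdown and 1.14 to 1.31% in NKX2-1 knockdown, against 1.54 to 1.56% in si-control. MT-ND4, which pumps protons in complex I, had 286108 and 292560 counts with SOX2 siRNA 1 and 214742 and 200674 with siRNA 2, and 236468, 234453, 282689 and 247245 in NKX2-1 knockdown, against 377270, 360282 and 372396 in si-control. It fell by 0.59 (SE 0.03, adjusted p = 1.97e-14) and 0.57 (SE 0.03, adjusted p = 1.53e-13) on the log2 scale. MT-ATP6, the proton channel subunit of complex V, fell by 0.57 and 0.48, and MT-CO2, which takes up electrons from cytochrome c, by 0.45 and 0.51.

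Several mitochondrial mRNAs passed on average but not with each reagent. MT-ND1 had 112165 and 132254 counts with SOX2 siRNA 1 and 87734 and 87297 with siRNA 2, against 120177, 116263 and 118386 in si-control. The libraries of siRNA 1 straddled the controls (0.04, adjusted p = 0.489), and only those of siRNA 2 lay below them (-0.43, adjusted p = 3e-08). MT-ND2 had the widest gap between the SOX2 reagents (0.70), with -0.08 (adjusted p = 0.0734) for siRNA 1, which did not pass, and -0.79 for siRNA 2. MT-CO3 did not pass with SOX2 siRNA 1 alone (-0.03, adjusted p = 0.473) or with NKX2-1 siRNA 2 alone (-0.08, adjusted p = 0.0766), and MT-CYB did not with NKX2-1 siRNA 2 alone (-0.06, adjusted p = 0.39). MT-ATP8 did not pass with SOX2 siRNA 1 alone (-0.40, adjusted p = 0.0831) or NKX2-1 siRNA 2 alone (-0.49, adjusted p = 0.0523) and rested on few reads, with 116, 181, 152 and 110 counts in SOX2 knockdown and 90.6, 120, 166 and 112 in NKX2-1 knockdown, against 168, 179 and 233 in si-control. Its fall with SOX2 knockdown (-0.48, adjusted p = 0.0125) did not pass without SOX2 siRNA 1 replicate 1 (-0.32), SOX2 siRNA 2 replicate 2 (-0.37) or si-control replicate 3 (-0.34). The reagents differed for 10 of 13 mitochondrial mRNAs in each knockdown, against 18.5% of all genes for SOX2 and 26.5% for NKX2-1. SOX2 siRNA 1 gave the higher level in all 10, and NKX2-1 siRNA 1 the lower level in all 10.

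With both reagents averaged, more nuclear members rose than fell, but NKX2-1 siRNA 1 alone gave 13 rises and 15 falls of 83. With SOX2 knockdown 35 of 83 rose and 4 fell, or 42.2% rose against 27.6% of all genes, with a median of 0.10 against 0.01 over all genes. With NKX2-1 knockdown 25 rose and 3 fell, or 30.1% against 18.5%, with a median of 0.06. NKX2-1 siRNA 1 alone stood against 17.4% of all genes rising and 21.5% falling, and NKX2-1 siRNA 2 alone gave 41 rises and 4 falls, against 16.0 and 17.5%. SOX2 siRNA 1 alone gave 28 rises and 11 falls, against 25.8 and 27.3% of all genes, and SOX2 siRNA 2 alone 33 and 3, against 24.4 and 24.7%. NKX2-1 calls over all genes shifted with scaling, where equal totals gave 4224 rises and 2643 falls, against 3092 and 3592 with the deposited scaling. Rises by complex with SOX2 and NKX2-1 knockdown were 15 and 8 of 37 in complex I, 3 and 3 of 4 in complex II, 6 and 2 of 10 in complex III, 5 and 7 of 15 in complex IV, and 6 and 5 of 17 in complex V. With each reagent as well as on average, 23 rose and 2 fell with SOX2 knockdown, against 18.6% of all genes rising and 19.3% falling. With NKX2-1 knockdown 8 of 83 did so and 0 fell, a share of rises near the 8.88% of all genes, of which 10.2% fell. All SOX2 knockdown libraries lay above all controls for 31 of 83 members, against 24.5% of all genes, and below them for 3, against 25.0%. All NKX2-1 knockdown libraries lay above all controls for 18 of 83, against 15.9% of all genes, and below them for 1, against 18.0%. Without SOX2 siRNA 1 replicate 2, 7 members fell with SOX2 knockdown in place of 4.

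**Figure D4:**
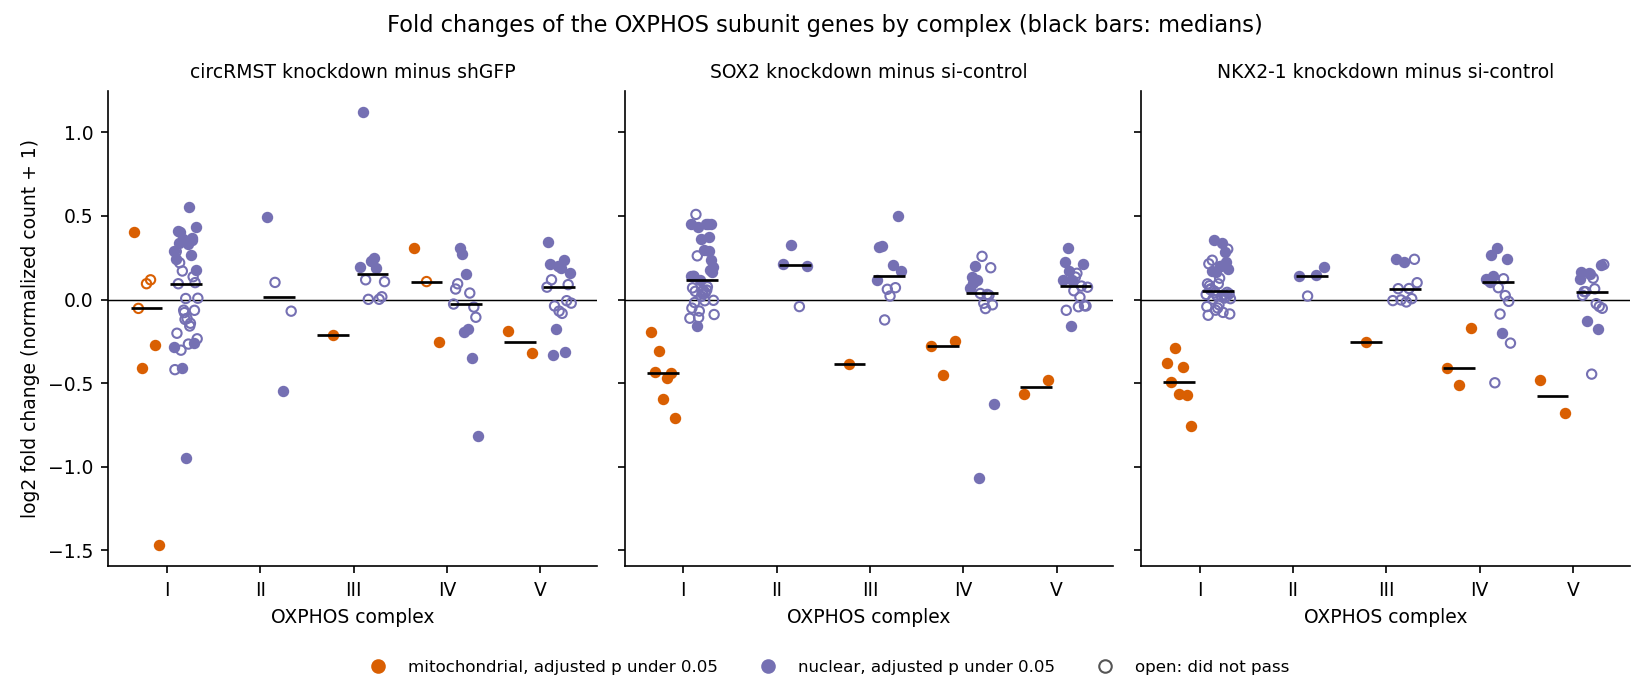
Log2 fold changes (log2 of the normalized count plus 1) of each tested member by OXPHOS complex in the 3 knockdowns, orange for mitochondrial and violet for nuclear genes, filled where the adjusted p was under 0.05, with black bars for medians. All 13 mitochondrial genes lie below 0 with SOX2 and NKX2-1 knockdown (MT-ND1 and MT-CO3 in both, and MT-CYB with NKX2-1 knockdown, turned under quantile normalization). The nuclear medians of every complex lie above 0 in all 3 panels, except that of complex IV with circRMST knockdown. With circRMST knockdown, however, equal totals turned the nuclear balance to 14 rises and 30 falls.

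Among complex I subunits, NDUFAB1, the mitochondrial acyl carrier protein, had 1095, 1137, 1130 and 1115 normalized counts in SOX2 knockdown and 810, 758, 939 and 940 in NKX2-1 knockdown, against 815, 821 and 848 in si-control. All SOX2 knockdown libraries were above the controls (0.43, adjusted p = 2.17e-08), whereas NKX2-1 siRNA 1 lay below and siRNA 2 above them. The accessory subunits NDUFC1 (0.45, adjusted p = 4.96e-05) and NDUFA11 (0.45, adjusted p = 0.00282) rose by as much from lower levels. NDUFS3, a core subunit, rose with SOX2 knockdown (0.37, adjusted p = 3.37e-08) and with NKX2-1 knockdown (0.28, adjusted p = 7.07e-06). It had 1907, 1832, 1718 and 1827 counts in SOX2 knockdown and 1552, 1617, 1798 and 1885 in NKX2-1 knockdown, against 1396, 1456 and 1362 in si-control.

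In complex II, SDHB (chr1:17018722-17054032) had 2203, 2178, 2278 and 2236 counts in SOX2 knockdown and 1747, 1750, 1824 and 1882 in NKX2-1 knockdown, against 1760, 1858 and 1708 in si-control. It rose with SOX2 knockdown (0.33, SE 0.04, adjusted p = 1.1e-07) with no overlap, and did not pass with NKX2-1 knockdown (0.02, adjusted p = 0.724). SDHC showed the other pattern, rising with NKX2-1 knockdown (0.15, adjusted p = 0.00106) and not passing with SOX2 knockdown (-0.04, adjusted p = 0.302). SDHA rose in both (0.21 and 0.14), as did SDHD (0.20 and 0.20). The SDHD call with NKX2-1 knockdown was lost without si-control replicate 3 (0.15), and both SDHD calls were lost with a replicate block (0.15 and 0.15).

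In complexes III to V, UQCR10 had 1333, 1309, 1366 and 1362 counts in SOX2 knockdown and 1200, 1232, 1299 and 1388 in NKX2-1 knockdown, against 1011, 1124 and 1109 in si-control. It rose in both (0.31, adjusted p = 2.97e-06, and 0.24, adjusted p = 0.000188), with every knockdown library above every control. UQCR11, a small subunit of the same complex, rose with SOX2 knockdown (0.32, adjusted p = 0.00093), and UQCRC1 with NKX2-1 knockdown (0.22, adjusted p = 5.63e-06). COX6C, a small subunit of complex IV, had 3955, 3677, 4417 and 4542 counts in NKX2-1 knockdown against 3281, 3390 and 3328 in si-control (0.31, adjusted p = 3.94e-07), and did not pass with SOX2 knockdown (0.04, adjusted p = 0.456). COX6A1 had 318, 370, 347 and 365 counts in NKX2-1 knockdown against 300, 299 and 275 in si-control (0.26, adjusted p = 0.0075), a call lost without NKX2-1 siRNA 1 replicate 2 (0.21) and with a replicate block (0.22). ATP5F1B rose by 0.22 and 0.17 in SOX2 and NKX2-1 knockdown (adjusted p = 3.17e-08 and 7.8e-06), and ATP5F1D, the delta subunit of complex V, by 0.31 with SOX2 knockdown (adjusted p = 3.35e-05).

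Tested directly, SOX2 minus NKX2-1 knockdown gave 19 rises and 10 falls among 83 nuclear members and 3 and 3 among the 13 mitochondrial mRNAs, against 27.9% rising and 28.0% falling of all genes. Among nuclear members, NDUFAB1 (0.38, adjusted p = 5.23e-08) and SDHB (0.30, adjusted p = 9.03e-08) were higher in SOX2 knockdown. COX6C (-0.27, adjusted p = 3.71e-07), SDHC (-0.19, adjusted p = 1.09e-05) and UQCRC1 (-0.16, adjusted p = 7.59e-05) were lower in SOX2 than in NKX2-1 knockdown. Among mitochondrial mRNAs, MT-ND1 (0.19, adjusted p = 0.000137), MT-ND5 (0.14) and MT-CO1 (0.13, adjusted p = 0.000105) were higher in SOX2 knockdown, MT-CO1 being fixed at -0.00 under quantile normalization. MT-CYB (-0.13), MT-CO3 (-0.08) and MT-ATP6 (-0.08) were lower. The reagents overlapped: MT-ND1 had 127834 and 91543 counts per kb with SOX2 siRNA 1 and 2, against 86235.5 and 104693 with NKX2-1 siRNA 1 and 2. MT-CO1 had 294942 and 257574 against 233330 and 270581 in the same order. Single libraries set the mitochondrial count: without NKX2-1 siRNA 2 replicate 1 there were 5 rises and 0 falls, without SOX2 siRNA 1 replicate 1 there were 8 rises, without NKX2-1 siRNA 2 replicate 2 there were 5 falls, and without SOX2 siRNA 2 replicate 2 there was 1 fall.

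Members with paralogs or restricted expression were low in these cells. COX4I2, COX6A2, COX7B2, ATP5MGL and ATP5MF-PTCD1 were below the test's level in each table that lists them, and COX6B2 and COX7A1 in the shRNA table. Their ubiquitous partners were abundant: COX4I1 had 7663, 7528, 8033 and 7913 normalized counts in SOX2 knockdown and 7866, 7761, 8242 and 8449 in NKX2-1 knockdown, against 7374, 7621 and 7249 in si-control. NDUFA4L2, a hypoxia-linked paralog of NDUFA4, had 62.8, 66.5, 111 and 55.8 counts in circRMST knockdown against 140 and 115 in shGFP, and 73.3, 75.1, 88.8 and 107 in SOX2 knockdown against 139, 145 and 114 in si-control. All of these knockdown libraries were below their controls. It fell with SOX2 knockdown (-0.63, SE 0.13, adjusted p = 0.000224). It fell with circRMST knockdown as well (-0.82, SE 0.25, adjusted p = 0.00826), but did not pass without shGFP replicate 1 (-0.68) or 2 (-0.96). COX6B2, a testis-linked paralog of COX6B1, had 17.8, 20.9, 21.0 and 9.40 counts in SOX2 knockdown against 31.2, 41.4 and 35.2 in si-control (-1.07, SE 0.28, adjusted p = 0.00169), a fall at low counts. UQCRHL is a copy of UQCRH, so their values are uncertain. Apart from copies, 35 nuclear members overlap a neighbouring or nested annotated gene, and reads in the overlap may be shared. Rows of mitochondrial-like pseudogenes held 1.74 to 2.12% of the reads of the mitochondrial members in shRNA libraries and 0.613 to 0.785% in siRNA libraries.

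Other mitochondrial genes, in 8 lists chosen by function, were read beside the subunits, and their background is the same 27.8 and 25.9% with circRMST, 27.6 and 28.7% with SOX2 and 18.5 and 21.4% with NKX2-1 knockdown for rises and falls. Of the 18 complex I assembly factors, 8 rose and 3 fell with circRMST knockdown, 7 and 1 with SOX2 knockdown, and 3 and 5 with NKX2-1 knockdown. Assembly factors of complexes II to V gave 10 rises and 10 falls of 39, 19 and 4 of 38, and 10 and 6 of 38. LYRM7, which matures the iron-sulfur subunit of complex III, had 1447 ± 81.0 counts in circRMST knockdown against 4187 ± 60.6 in shGFP (SD, n = 4 and n = 2), a log2 fold change of -1.53.

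Mitochondrial DNA maintenance and transcription genes gave 6 rises and 6 falls of 18 with circRMST knockdown, 10 and 1 with SOX2 knockdown and 7 and 3 with NKX2-1 knockdown. TFB2M, which opens mitochondrial promoters for the polymerase, had 837 ± 48.4 counts in circRMST knockdown against 1259 ± 154 in shGFP (-0.58). It had 1634 ± 106 in SOX2 knockdown and 1106 ± 105 in NKX2-1 knockdown, against 996 ± 51.7 in si-control (0.71 and 0.15). TFB2M thus rose with SOX2 knockdown while all 13 mitochondrial mRNAs fell under the deposited scaling (quantile normalization turned MT-ND1 and MT-CO3). TFAM, which packages mitochondrial DNA and starts its transcription, fell with circRMST knockdown (-0.40), rose with SOX2 knockdown (0.28) and did not pass with NKX2-1 knockdown (0.10, adjusted p = 0.26).

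Mitochondrial RNA processing genes gave 6 rises and 6 falls of 22 with circRMST knockdown, 16 and 1 with SOX2 knockdown, and 3 and 4 with NKX2-1 knockdown. TRMT10C, a subunit of mitochondrial RNase P, had 1043 ± 42.1 counts in circRMST knockdown against 2081 ± 6.34 in shGFP (-0.998). ELAC2, which cuts the 3' ends of mitochondrial tRNAs, had 5478 ± 466 in SOX2 knockdown against 3547 ± 42.2 in si-control (0.62). Nuclear regulators gave 4 rises and 4 falls of 13, 6 and 2, and 5 and 3. PPARA, a regulator of fatty acid oxidation, rose with circRMST knockdown (0.91) and fell with SOX2 (-1.25) and NKX2-1 (-0.78) knockdown, and MYC fell with circRMST (-0.65), rose with SOX2 (0.62) and fell with NKX2-1 (-0.45) knockdown.

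Tricarboxylic acid cycle genes gave 7 rises and 4 falls of 18 with circRMST knockdown, 12 and 3 with SOX2 knockdown and 8 and 1 with NKX2-1 knockdown. SUCLG2, a subunit of the GTP-forming succinyl-CoA ligase, had 27.2 ± 6.03 counts in SOX2 knockdown against 75.0 ± 4.26 in si-control (-1.45). Electron carriers and nucleotide exchange gave 7 and 4 of 21, 11 and 4, and 6 and 2. SLC25A3, the phosphate carrier that feeds complex V, had 2139 ± 184 counts in circRMST knockdown against 4694 ± 41.7 in shGFP (-1.14). Genes of the mitochondrial unfolded protein response and turnover gave 6 and 4 of 16, 6 and 2, and 2 and 6. PHB2, a subunit of the inner-membrane prohibitin ring, had 1141 ± 192 counts in circRMST knockdown against 3236 ± 108 in shGFP (-1.52).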

How the data were processed

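The authors deposited 1 table of signal values, normalized counts by gene, for each kind of library, made with cutadapt 2.5, STAR 2.5.2b and DESeq2 on hg38, per the submitters' processing notes. The DESeq2 version, annotation, counting tool and strand setting are not given in the sources used here. Values were whole multiples of a step in 100% of cases (within 0.05 reads), so whole reads were recovered for depth and shares. Columns were matched to samples by name. Features of non-human sequence (55 and 38) and pseudoautosomal copies (7 and 11) were left out, and 98.5% of IDs had a symbol. The 10 ChIP-seq samples were not analysed here.

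Genes with a mean of at least 10 were tested, 19068 and 16750, in R 4.3.3 with limma 3.58.1 (group means, all libraries of a table, eBayes with trend) on log2 of the normalized count plus 1, two-sided, with Benjamini-Hochberg adjustment over all genes tested. Fold changes on this scale understate the change of low genes. Alternatives used edgeR 4.0.16 and DESeq2 1.42.0 on recovered reads, other scalings and filters, single reagents, and each library left out. The code of the fit was run on simulated counts with few changed genes and a fixed spread between libraries. These settings differ from the data, so that run says nothing about single calls here. Replicates were not copies (chi-square over degrees of freedom 1.56 to 6.02). Named genes were the 13 mitochondrial mRNAs, SDHA to SDHD, listed paralogs, up to 2 rises and 2 falls per complex and comparison that passed on average and with each reagent (mean of at least 50), and up to 2 genes per list. Members, lists and this rule were chosen with earlier results of these data known. NDUFA4, TFAM and the genes given beside another comparison's named gene were added for comparison. Single values of some genes are not reported here, though counts include them.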

Additional observations from a re-analysis of the deposited data

Results flagged for a closer look

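The following nuclear and mitochondrial members moved in opposite directions with the 2 reagents of a knockdown, and the direct difference between the reagents passed the adjusted threshold (limma, Benjamini-Hochberg). No cause was tested. With circRMST, shRNA 1 minus shRNA 2 was 0.66 (0.6576) for NDUFA4, 0.58 (0.5782) for COX7B and 0.52 (0.5193) for MT-ND2 on the log2 scale. COX7B had 3290 and 3055 counts with shRNA 1 and 2030 and 2221 with shRNA 2, against 2587 and 2466 in shGFP, and MT-ND2 had 73506 and 77858 and then 53906 and 51680, against 61362 and 70050. The difference was 0.35 (0.3541) for COX4I1, 0.32 (0.3155) for UQCRB and 0.27 (0.2679) for UQCRH, each above shGFP with shRNA 1 and below it with shRNA 2.

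With NKX2-1, siRNA 1 minus siRNA 2 was 1.31 (1.3117) for NDUFC2, which had 139 and 124 counts with siRNA 1 and 55.2 and 49.4 with siRNA 2, against 99.8, 91.4 and 73.3 in si-control. It was also positive for UQCRC2 (0.2416). It was negative for CYC1 (-0.5013), ATP5F1E (-0.3947), UQCRB (-0.3884), NDUFA4 (-0.3463) and UQCRH (-0.2653), which were below si-control with siRNA 1 and above it with siRNA 2. CYC1, cytochrome c1 of complex III, had 5059 and 5548 counts with siRNA 1 and 7542 and 7457 with siRNA 2, against 6320, 6365 and 6312 in si-control. UQCRH, UQCRB and NDUFA4 met this condition in both tables.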

How the results depend on the processing

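Of the named calls, 13 of 24 with circRMST, 15 of 28 with SOX2 and 11 of 25 with NKX2-1 knockdown, and 12 of 23 in SOX2 minus NKX2-1, kept direction and threshold under every alternative run, single reagents and libraries left out included. For circRMST knockdown, equal totals gave 14 nuclear rises and 30 falls, and limma without trend gave 14 and 7 with 4 mitochondrial falls. The mean log2 fold change of mitochondrial minus nuclear members was -0.21, and -0.055 with no filter. Mitochondrial rises numbered 1 under quantile normalization, 5 with reagent 1 alone and 1 with reagent 2 alone, which gave 15 nuclear rises and 20 falls. Leaving out a library gave 2 to 4 mitochondrial rises, 4 to 7 falls and 7 to 13 nuclear falls. COX7A2 turned to -0.022 with reagent 2 alone.

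For SOX2 knockdown, quantile normalization gave 1 mitochondrial rise, 6 falls and 10 nuclear falls, and the mitochondrial minus nuclear mean was -0.27 under it, -0.34 with reagent 1 alone (11 nuclear falls) and -0.72 with reagent 2 alone, against -0.53. MT-ND1 turned to 0.25 under quantile normalization and 0.042 with reagent 1 alone, and MT-CO3 to 0.027 under quantile normalization. Without a library 3 to 7 nuclear members fell. For NKX2-1 knockdown, quantile normalization gave 3 mitochondrial rises, 6 falls and a mean of -0.22, and turned MT-ND1 (0.10), MT-CO3 (0.13) and MT-CYB (0.20). Reagent 1 alone gave 13 nuclear rises and 15 falls, and reagent 2 alone 41 rises.

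For SOX2 minus NKX2-1 knockdown, mitochondrial falls numbered 1 with DESeq2, 5 with equal totals (with or without mitochondrial and 7SL-type genes, each with 21 nuclear falls), 0 without trend (6 nuclear falls) and 0 with no filter, and nuclear falls 19 under quantile normalization. Leaving out a library gave 3 to 8 mitochondrial rises and 0 to 5 falls.

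With a replicate block, SOX2 knockdown gave 12 mitochondrial falls and 31 nuclear rises, and NKX2-1 knockdown 13 and 22. Same-numbered libraries did not deviate in the same direction (correlations of -0.13 to 0.10 in shRNA and -0.35 to 0.02 in siRNA libraries). The -0.35 was between NKX2-1 siRNA 1 and SOX2 siRNA 1, against -0.03 to 0.02 for the other siRNA pairs. Replicate 2 of NKX2-1 siRNA 1 thus deviated with replicate 1 of SOX2 siRNA 1, the libraries with 50098747 and 30742546 reads. A block by replicate number does not take up such a deviation, and its cause was not tested. The transcript-length correction was not run, as no lengths were used here. Low counts limit MT-ATP8 in siRNA libraries, COX6B2 and NDUFA4L2.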
